A study of Mus musculus with 6 samples.

Results

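Cathepsins are the proteases of the lysosome, and 10 of their genes, Ctsa, Ctsb, Ctsc, Ctsd, Ctse, Ctsf, Ctsh, Ctsl, Ctss and Ctsz, were examined in mouse uterine luminal epithelium with and without the transcription factor gene Foxo1. The 10 were found by gene symbol among the 24964 genes of the expression table. This epithelium faces the lumen where embryos attach, and it was collected by laser capture on pregnancy day 4, and its RNA was sequenced in 6 samples. The Foxo1ff group (genotype Foxo1f/f, floxed Foxo1 alleles and no Cre, n = 3) was set against the Foxo1dd group (genotype Pgrcre/+Foxo1f/f, n = 3), which carries the same floxed alleles plus 1 copy of Cre at Pgr, the progesterone receptor gene. Females were kept with littermates to 8 weeks of age and then mated. In this model Cre acts wherever Pgr is or was active, not in the epithelium alone, and besides Foxo1 the groups differ at 1 Pgr allele. Each sample is labelled a bioreplicate, without the number of animals behind it, so a p-value here reflects only sample-to-sample spread, which may be partly technical.

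Cathepsins are made as inactive precursors, tagged with mannose phosphate in the Golgi, carried to lysosomes by sorting receptors and activated there by removal of a propeptide. Most are cysteine proteases (Ctsb, Ctsc, Ctsf, Ctsh, Ctsl, Ctss and Ctsz), Ctsd and Ctse are aspartic proteases, and Ctsa is a serine carboxypeptidase. Cystatins and stefins block the cysteine members. In several mammals the uterine epithelium makes cathepsins and cystatins in early pregnancy, and some of these proteases are secreted as well as kept in lysosomes.

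Levels are FPKM, fragments scaled by gene length and sequencing depth, as the authors deposited them. The 11427 genes averaging 1 FPKM or more were each tested with limma on log2(FPKM + 1), and a gene passed at a Benjamini-Hochberg adjusted p under 0.05 over all of them. Every change below is Foxo1dd minus Foxo1ff on that log2 scale with its standard error (SE), and a fold is a ratio of group means of FPKM. All 10 cathepsin genes reached the minimum. Summed FPKM was 613186 to 667499 in the Foxo1ff samples against 552190 to 564628 in the Foxo1dd samples. Low values of short RNA genes stepped by whole reads, and by these steps 1 read on a gene of 1 kb was worth about 0.0102 to 0.0136 FPKM. Foxo1dd 2 stands apart from the other samples: it had 13995 genes above 0 against 15474 to 16062, and Rn45s, a precursor of ribosomal RNA, was highest there at 40296 FPKM against 23715 to 31304. Foxo1 itself had 111 to 160 FPKM in Foxo1ff and 0.942 to 1.72 FPKM in Foxo1dd. Pgr went from 2.03 to 31.5 FPKM in mean. Among markers of the captured layer, 11 of 11 epithelial genes were tested, of which 5 rose, 2 fell (Epcam, from 554.5 to 393 FPKM in mean, and Cdh1, from 289 to 194 FPKM) and 4 did not pass. Their summed level was 3080 to 4115 FPKM in Foxo1ff and 4480 to 5456 FPKM in Foxo1dd. Stroma markers summed to 34.4 to 38.7 and 39.4 to 52.7 FPKM, endothelial markers to 1.28 to 1.496 and 1.79 to 3.79 FPKM, smooth muscle markers to 2.99 to 5.33 and 3.77 to 4.76 FPKM, and neutrophil markers to under 1 FPKM and to 1.10 to 4.37 FPKM. The neutrophil sum in Foxo1dd was nearly all Ly6g, while 4 of the 8 markers (Elane, Camp, Ngp and S100a8) were at 0 in all samples and Mpo went from 0.449 FPKM in mean to 0. Cdh1 and the neutrophil markers other than Ly6g were named after their values were seen.

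Of the 10 cathepsin genes, 3 rose in Foxo1dd (Ctsd, Ctsb and Ctsh), 4 fell (Ctsc, Ctsz, Ctss and Ctsf) and 3 did not pass the test (Ctsa, Ctse and Ctsl). Over all genes tested, 56.4% passed, 22.2% higher and 34.2% lower, so a count of 7 in 10 is not in itself a result about cathepsins. The median change of the 10 was -0.08, beside -0.15 for all genes tested. What the genes show is a spread of sizes: Ctsd was 8.90-fold higher and Ctsc 18.7-fold lower, while Ctsl had nearly the same mean in both groups. By the size of its change in either direction Ctsc stood at position 146 and Ctsd at position 326 of the 11427 genes, and Ctsl at position 10863. The groups did not overlap for 7 of the 10 genes, against 64.2% of all genes tested. The low end of the family was still well covered, since the smallest value, Ctse in Foxo1ff 2, corresponds to about 127 reads.

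**Figure D1:**
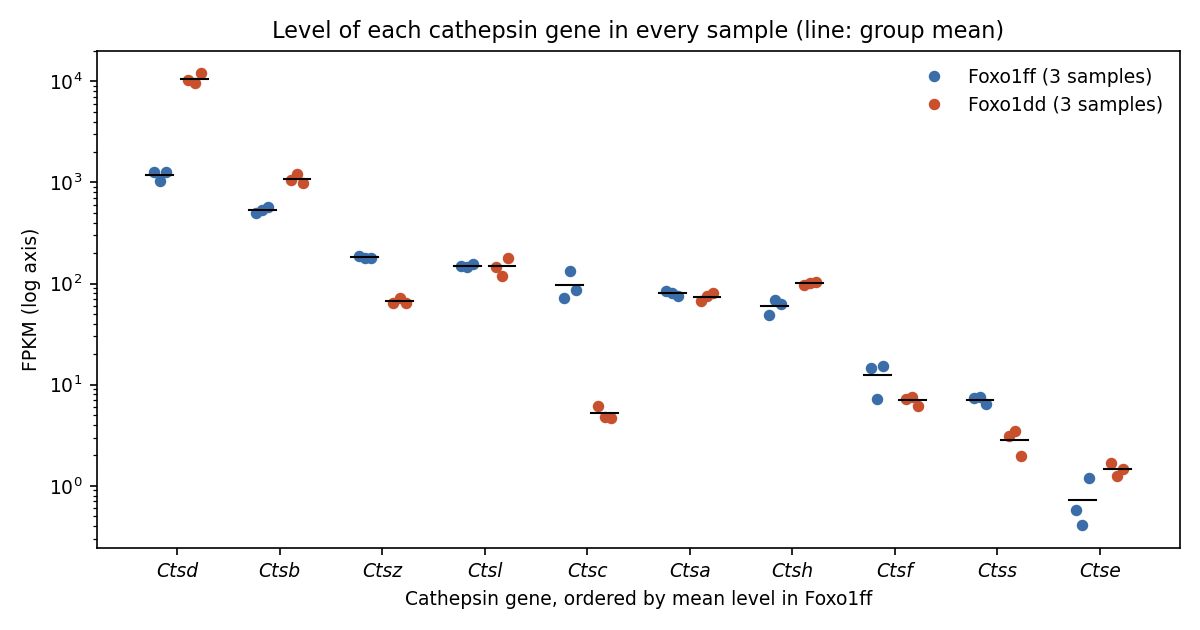
Level of each cathepsin gene in FPKM (log axis) in the 3 Foxo1ff and 3 Foxo1dd samples, each point a sample and each line a group mean. Ctsd rises from 1190 to 10593 in mean, Ctsc drops from 97.5 to 5.21 in mean, and the points of Ctsa, Ctsl and Ctsf overlap between the groups.

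The promoter stretches are shown because TFEB and related factors bind a motif built on the letters CACGTG, and this core occurs in some cathepsin promoters. RefSeq promoters (GRCm38.p6, 250 bases before to 50 after a start site) were available for 7 of the 10 genes, 8 promoters in all. Ctsb, Ctse and Ctsh had none. The core was found in 4 of these genes (Ctsa, Ctsd, Ctsf and Ctsl), which is 4 of the 7 genes with a promoter, beside 2187 of 27025 genes in the whole set (7.15% of its 32851 promoters of the same length). The core holds a CG, and the cathepsin promoters were richer in these bases than promoters at large, with a median of 60.0% GC and 12 CG pairs beside 52.7% and 7. The part of base composition in the count was not tested. It reads the same on both strands. Capitals mark the core, and each stretch runs 5′ to 3′ on the gene's strand.
Ctsd, chr7:142387908-142387936, minus strand, core 98 to 93 bases before the start site: cgcccgcgtctCACGTGacccgttgaggg
Ctsd, chr7:142388055-142388077, minus strand: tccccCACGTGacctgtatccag
Ctsa, chr2:164833750-164833778, plus strand: gagcaaactgtCACGTGatgcagatgctc
Ctsa, chr2:164833767-164833795, plus strand: atgcagatgctCACGTGaccagagctaca
Ctsf, chr19:4855075-4855103, plus strand: accccgtggtcCACGTGcctcgcgtaaat
Ctsl, chr13:64370739-64370767, minus strand: gcgttagaagcCACGTGctgatctaaatt

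Of the 4 genes with the core, Ctsd rose, Ctsf fell with the least stable call, and Ctsa and Ctsl did not pass. Whether the core has a part in these changes was not tested. Ctsb and Ctsh, which also rose, had no promoter to search. Both Ctsa cores lie in its promoter at chr2:164833523-164833822, while its other promoter, at chr2:164832622-164832921, held 0. The Ctsa cores, the Ctsl core and the Ctsd core nearer the start site lie inside the annotated bounds of their genes. A forkhead motif (TGTTTAC) was found in 0 of the 8 promoters and in 3.65% of all, and a steroid receptor motif, the palindromic response element, in 0 and in 0.475%, with both strands searched. That these letters are missing from these windows says nothing about binding of either factor. Ctsc, the gene that fell most, held none of the 3 motifs, and the 250 bases before its start site are given for comparison with Ctsd.
Ctsc, chr7:88277835-88278084, plus strand: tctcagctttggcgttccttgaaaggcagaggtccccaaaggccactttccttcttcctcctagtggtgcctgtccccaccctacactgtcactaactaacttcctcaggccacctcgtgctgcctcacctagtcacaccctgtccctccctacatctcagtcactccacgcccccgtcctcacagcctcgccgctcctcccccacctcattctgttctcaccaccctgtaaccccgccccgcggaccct

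Ctsd, the main aspartic protease of lysosomes, was the most abundant cathepsin in every sample. It had 1276, 1031 and 1265 FPKM in the Foxo1ff samples against 10186, 9609 and 11985 FPKM in the Foxo1dd samples. Every Foxo1dd sample was far above every Foxo1ff sample. The change was 3.15 ± 0.17 (SE, n = 3 per group, limma adjusted p = 1.15e-06), and 3.22 without Foxo1dd 2. By mean level Ctsd stood at position 67 of the 24964 genes in Foxo1ff and at position 3 in Foxo1dd. On its own it made up 0.154% to 0.208% of all summed FPKM in Foxo1ff and 1.74% to 2.12% in Foxo1dd. Ctsd lies on chromosome 7 (142375911 to 142388038, minus strand, mm10), where 808 bases of its exons are shared with Gm49369 on the same strand. Gm49369 was not found by symbol in the expression table, so the value of Ctsd is uncertain to the extent that reads of such shared exons were counted for it.

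Ctse, the second aspartic member and a protease of endosomes in epithelia and immune cells, was the lowest of the 10. It had 0.582, 0.407 and 1.19 FPKM in the Foxo1ff samples against 1.69, 1.24 and 1.47 FPKM in the Foxo1dd samples. The Foxo1dd values lay above the Foxo1ff values, the nearest pair being 1.24 and 1.19. The change of 0.54 ± 0.22 did not pass (SE, limma adjusted p = 0.0657, unadjusted p = 0.0388, 95% interval 0.03 to 1.04 before adjustment). It did pass under median-of-ratios scaling (adjusted p = 0.0475), under quantile normalization (0.0230), without Foxo1ff replicate 3 (0.0332) and in 2 further settings, and its adjusted p ranged from 0.00957 to 0.226 over the 14 alternatives that could be run.

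Ctsb, a cysteine protease that cuts both inside proteins and from their carboxyl end, was the second most abundant member in both groups. It had 498, 530 and 572 FPKM in the Foxo1ff samples against 1062, 1199 and 994 FPKM in the Foxo1dd samples. All Foxo1dd samples lay above all Foxo1ff samples, 2.03-fold in mean (change 1.02 ± 0.13 SE, limma adjusted p = 0.000161). Ctsb lies on chromosome 14 (63122462 to 63145923, plus strand), and 774 bases of its exons lie opposite exons of Fdft1. Fdft1 had 25.3 to 31.2 FPKM in Foxo1ff and 12.1 to 15.2 FPKM in Foxo1dd, far below Ctsb. Ctsh, an aminopeptidase that trims proteins from their amino end, had 49.3, 68.3 and 62.3 FPKM in the Foxo1ff samples against 96.7, 101 and 104 FPKM in the Foxo1dd samples. The groups did not overlap, and the mean was 1.67-fold higher (change 0.75 ± 0.14 SE, limma adjusted p = 0.00153). Ctsh lies on chromosome 9 (90054152 to 90076089, plus strand), the chromosome of the Cre insertion, 81.1 Mb from Pgr.

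Ctsc, the dipeptidyl peptidase that activates granule serine proteases of immune cells, fell most. It had 72.4, 134 and 85.9 FPKM in the Foxo1ff samples against 6.09, 4.82 and 4.73 FPKM in the Foxo1dd samples. The highest Foxo1dd sample was far below the lowest Foxo1ff sample, although the Foxo1ff samples varied 1.85-fold among themselves. The change was -3.94 ± 0.22 (SE, n = 3 per group, limma adjusted p = 1.37e-06), and -3.90 without Foxo1dd 2. In mean level Ctsc went from position 984 of all genes in Foxo1ff to position 8487 in Foxo1dd. It lies on chromosome 7 (88278085 to 88310888, plus strand) and shares no exon bases with another annotated gene. Ctsz, a carboxypeptidase also known as cathepsin X, had 189, 180 and 178 FPKM in the Foxo1ff samples against 63.7, 72.4 and 64.0 FPKM in the Foxo1dd samples. Its samples were close together within each group and the groups were well apart, 2.73-fold lower in mean in Foxo1dd (change -1.44 ± 0.11 SE, limma adjusted p = 7.92e-06). Ctsz lies on chromosome 2 (174427493 to 174439039, minus strand) and overlaps Nelfcd on the opposite strand by 10 exon bases.

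Ctss, a protease of antigen-presenting cells that trims the invariant chain of MHC class II, was low throughout. It had 7.36, 7.59 and 6.40 FPKM in the Foxo1ff samples against 3.11, 3.48 and 1.97 FPKM in the Foxo1dd samples. The groups did not overlap, and the mean was 2.49-fold lower in Foxo1dd (change -1.09 ± 0.19 SE, limma adjusted p = 0.00117). Ctsf, a cysteine protease with a long propeptide, had 14.7, 7.20 and 15.2 FPKM in the Foxo1ff samples against 7.24, 7.55 and 6.18 FPKM in the Foxo1dd samples. Foxo1ff 2 lay among the Foxo1dd samples, so the groups overlapped. The change of -0.68 ± 0.25 (SE) passed narrowly (limma adjusted p = 0.0460) and was the least stable of the calls. It was lost under median-of-ratios scaling (adjusted p = 0.105) and quantile normalization (0.118), and on leaving out any sample except Foxo1ff 2 (0.0576 to 0.159), while without Foxo1ff 2 the change was -1.001 at adjusted p = 0.00234.

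Ctsl and Ctsa did not pass in either direction. Ctsl, a broad endopeptidase of lysosomes, had 151, 145 and 156 FPKM in the Foxo1ff samples against 145, 119 and 180 FPKM in the Foxo1dd samples. The Foxo1dd samples surrounded the Foxo1ff samples, with a spread of 1.52-fold against 1.07-fold. The difference was -0.04 (limma adjusted p = 0.823, 95% interval -0.39 to 0.30), with a sign that turned under both scalings (0.08 and 0.12) and without Foxo1dd 2 (0.10). Ctsl shares 395 exon bases with the pseudogene Gm49230 on the same strand and 1742 with Gm47123 on the opposite strand, on chromosome 13 (64359337 to 64370890, minus strand), so its value is uncertain. Neither Gm49230 nor Gm47123 was found by symbol in the expression table. Ctsa, which besides its peptidase activity holds the sialidase Neu1 and the galactosidase Glb1 in a stable complex, had 83.8, 80.7 and 76.1 FPKM in the Foxo1ff samples against 67.3, 74.8 and 80.8 FPKM in the Foxo1dd samples. The groups overlapped, and the difference was -0.11 (limma adjusted p = 0.436, 95% interval -0.37 to 0.15), which became 0.01 under both scalings. The intervals do not show that either gene was equal between the genotypes.

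The order of the levels changed between the genotypes. FPKM is a level per length, so genes can be set side by side. In Foxo1ff the order of means was Ctsd, Ctsb, Ctsz, Ctsl, Ctsc, Ctsa, Ctsh, Ctsf, Ctss and Ctse, and neighbours whose samples overlapped were Ctsc with Ctsa and Ctsf with Ctss. In Foxo1dd it was Ctsd, Ctsb, Ctsl, Ctsh, Ctsa, Ctsz, Ctsf, Ctsc, Ctss and Ctse, and the samples of Ctsa and Ctsz overlapped. Ctsz moved from the third place to the sixth, Ctsc from the fifth to the eighth, and Ctsh from the seventh to the fourth.

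The summed level of the 10 genes was 2341, 2184 and 2418 FPKM in the Foxo1ff samples against 11639, 11191 and 13421 FPKM in the Foxo1dd samples. As a share of all summed FPKM this was 0.327% to 0.382% in Foxo1ff and 2.03% to 2.38% in Foxo1dd. Most of the difference was Ctsd, which made up 47.2% to 54.5% of the cathepsin sum in Foxo1ff and 85.9% to 89.3% in Foxo1dd. Without Ctsd the sum was 1065 to 1154 FPKM in Foxo1ff and 1436 to 1583 FPKM in Foxo1dd. The 7 cysteine members summed to 981 to 1076 FPKM in Foxo1ff and 1354 to 1507 FPKM in Foxo1dd, carried by Ctsb. These sums are descriptions, with no test.

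**Figure D2:**
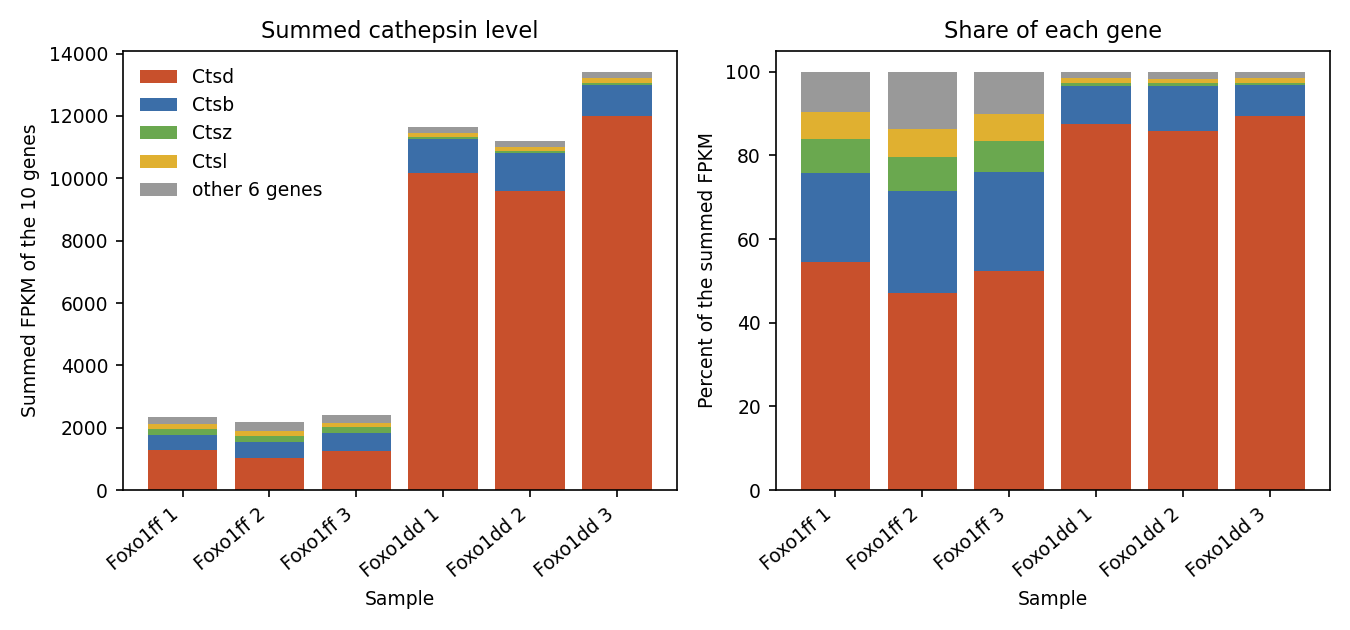
Summed FPKM of the 10 cathepsin genes in each sample (left) and the percent of that sum held by each gene (right), with the 6 less abundant genes drawn together. The Foxo1dd bars reach 11191 to 13421 FPKM against 2184 to 2418 FPKM in Foxo1ff, and Ctsd fills 85.9% to 89.3% of them.

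Ctsc and Ctss are strongly expressed in leukocytes, and most but not all of the leukocyte markers tested fell as they did. Of 18 macrophage and leukocyte markers 12 were tested, of which 8 fell and 2 rose (median change -1.07). Over all genes tested, 34.2% fell and 22.2% rose (median -0.15), and the difference from other genes was not tested. The MHC class II genes H2-Aa and H2-Ab1, named after their values were seen, did not pass (changes -0.10 and 0.02, limma adjusted p = 0.851 and 0.957). Ptprc, the pan-leukocyte antigen CD45, had 3.75, 4.05 and 2.96 FPKM in the Foxo1ff samples against 0.252, 0.372 and 0.258 FPKM in the Foxo1dd samples (change -1.82 ± 0.19 SE, limma adjusted p = 4.32e-05). C1qa, a complement subunit made by macrophages, had 4.83, 5.21 and 6.21 FPKM against 0.599, 1.55 and 1.33 FPKM (change -1.59 ± 0.22 SE, adjusted p = 0.000247). The 2 that rose were Laptm5, a lysosomal membrane protein of blood cells, from 4.04 to 63.2 FPKM in mean, and Cd14, from 78.0 to 153 FPKM. Because of these 2, the summed level of the whole list went from 157 to 192 FPKM in Foxo1ff to 224 to 259 FPKM in Foxo1dd. No marker of the list was at 0 in all 6 samples, and the macrophage marker Mrc1, named after its values were seen, was listed at 0 in Foxo1dd 1 and Foxo1dd 2 and reached at most 0.0760 FPKM. Ctsc in Foxo1ff stood well above Ptprc and C1qa in the same samples, and Ctss somewhat above them. The part of leukocytes in the falls of Ctsc and Ctss was not tested. In bulk samples, fewer cells of a type and less RNA per cell cannot be told apart. Glandular markers moved in both directions: of 4 tested, Spink1 and Prss29 fell and Sox9 and Lif rose. Their sum of 49.3 to 202 FPKM in Foxo1ff and 7.32 to 27.9 FPKM in Foxo1dd was mostly Spink1 in Foxo1ff (93.3 and 0.124 FPKM in mean), and their part was not tested either.

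**Figure D3:**
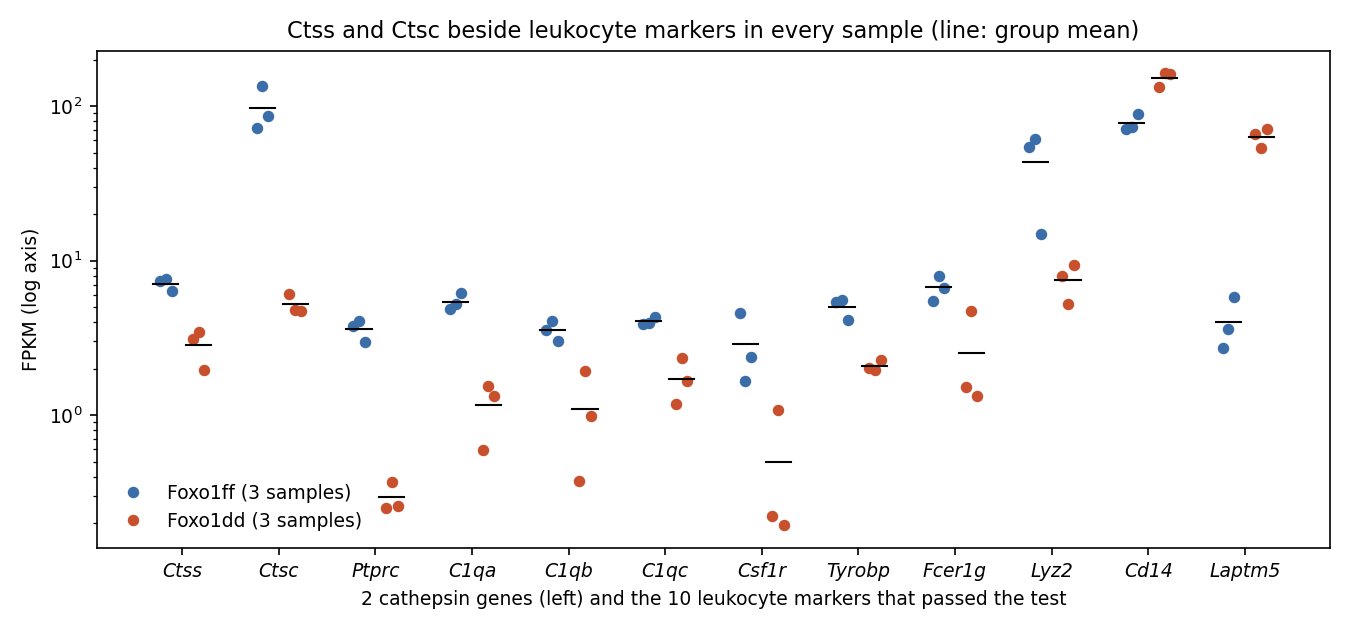
Levels in FPKM (log axis) of Ctss and Ctsc and of the 10 leukocyte markers that passed the test, each point a sample and each line a group mean. Of these markers 8 lie lower in Foxo1dd, as Ctss and Ctsc do, while Cd14 and Laptm5 lie higher.

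The other members of the family were mostly silent. Of 14 further cathepsin and related aspartic protease genes, 9 were listed at 0 in all samples, among them the placental group (Cts3, Cts6, Cts7, Cts8, Ctsj, Ctsm, Ctsq, Ctsr). Only Ctso and Napsa reached the minimum. Napsa, the aspartic protease napsin A, had 299, 180 and 355 FPKM in the Foxo1ff samples against 297, 322 and 252 FPKM in the Foxo1dd samples, so the groups overlapped (change 0.11 ± 0.23 SE, limma adjusted p = 0.707). Ctso, a little-studied cysteine cathepsin, had 11.9, 18.6 and 15.4 FPKM in the Foxo1ff samples against 9.79, 12.3 and 8.06 FPKM in the Foxo1dd samples. The ranges overlapped slightly, and its fall of -0.56 ± 0.20 (SE, limma adjusted p = 0.0382) was lost under both scalings (0.116 and 0.125) and without Foxo1ff 2, Foxo1ff 3, Foxo1dd 1 or Foxo1dd 3 (0.0919 to 0.157). Ctsk, the collagen-cutting cathepsin of osteoclasts, named for its role with its values known, had 0.198 to 0.718 FPKM in all samples.

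Among inhibitors of cysteine cathepsins, the secreted cystatin fell and the cytosolic stefin did not pass. Of 23 inhibitor genes, which include serpins such as Serpinb1a and so not only inhibitors of cysteine cathepsins, 7 were tested. Of these 0 rose and 3 fell, beside 22.2% and 34.2% of all genes tested (median change -0.78 beside -0.15). The difference from other genes was not tested. There was 1 rise (Serpinb1a) under quantile normalization, with array weights or without Foxo1dd 2. Cst3, cystatin C, had 256, 294 and 277 FPKM in the Foxo1ff samples against 85.7, 95.5 and 77.0 FPKM in the Foxo1dd samples, without overlap (change -1.67 ± 0.12 SE, limma adjusted p = 6.49e-06). Cstb, stefin B, chosen for its role with its values known, had 179, 196 and 203 FPKM against 215, 213 and 169 FPKM and did not pass (adjusted p = 0.825, 95% interval -0.26 to 0.33). Kng1 and Kng2, the kininogens that hold cystatin domains, fell from 19.8 to 0.0227 FPKM and from 19.0 to 0.399 FPKM in mean, and as related genes may share reads. The serpin Serpinb1a, an inhibitor of neutrophil proteases, had 0.372 to 0.479 FPKM in the Foxo1ff samples against 2.24, 0.352 and 2.23 FPKM in the Foxo1dd samples, with Foxo1dd 2 at the Foxo1ff level (limma adjusted p = 0.0840). Without Foxo1dd 2 its change was 1.17 and passed (adjusted p = 0.000883). Set against cystatin C, the level of Ctsb was 1.80 to 2.07 times that of Cst3 in Foxo1ff and 12.4 to 12.9 times in Foxo1dd, and that of Ctsl 0.495 to 0.588 and 1.24 to 2.34 times. These ratios are of RNA levels per length, with no test.

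A list of genes that process cathepsins or share their complexes, together with other lysosomal genes such as Gm2a and Scpep1, held 11 tested genes. Of these 2 rose and 7 fell, beside 22.2% and 34.2% of all genes tested (median change -0.75 beside -0.15). The difference from other genes was not tested. Grn, the progranulin precursor, whose product binds pro-cathepsin D in lysosomes, rose as Ctsd did, with 186, 149 and 149 FPKM in the Foxo1ff samples against 819, 724 and 813 FPKM in the Foxo1dd samples (change 2.28 ± 0.13 SE, limma adjusted p = 1.69e-06). Psap, prosaposin, which also binds pro-cathepsin D, fell instead, from 429 to 254 FPKM in mean (change -0.75 ± 0.12 SE, adjusted p = 0.000557). Lgmn, legumain, the protease that cuts several cathepsins to their mature form, fell from 266 to 177 FPKM (change -0.58 ± 0.11 SE, adjusted p = 0.00196). Psap, Lgmn and Neu1 were named for their roles with their values known. The enzymes held by Ctsa fell while Ctsa itself did not pass: Glb1 had 67.7, 59.0 and 62.3 FPKM in the Foxo1ff samples against 26.5, 27.6 and 27.4 FPKM in the Foxo1dd samples, and Neu1 fell from 87.7 to 41.2 FPKM in mean (changes -1.18 and -1.06, adjusted p = 2.76e-05 and 0.000183). Whether Ctsa differed from Glb1 or Neu1 in its change was not tested. Gm2a, the activator of ganglioside breakdown, and Scpep1, a serine carboxypeptidase related to Ctsa, fell 5.06-fold and 3.31-fold.

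In the mannose phosphate and sorting list, 2 receptors of the sortilin family rose, while both mannose phosphate receptors and the tagging gene Gnptab fell. Of 19 tested genes 3 rose and 4 fell, beside 22.2% and 34.2% of all genes tested, so fewer of the list passed than of genes at large; both scalings gave 4 and 3 (median change -0.24). Sorl1 and Sort1, receptors of the sortilin family that carry cargo between Golgi and endosomes, rose 18.0-fold and 5.24-fold. Sorl1 had 9.28, 7.16 and 7.04 FPKM in the Foxo1ff samples against 137, 122 and 162 FPKM in the Foxo1dd samples (change 4.00 ± 0.15 SE, limma adjusted p = 2.47e-07). Gnptab, a gene of the enzyme that starts the mannose phosphate tag, fell from 20.2 to 8.39 FPKM (change -1.18 ± 0.19 SE, adjusted p = 0.000617). Gnptg and Nagpa, also genes of the tagging step and named after their values were seen, did not pass (changes -0.28 and -0.02, limma adjusted p = 0.143 and 0.903). M6pr, the small mannose phosphate receptor, named for its role with its values known, had 172, 166 and 171 FPKM against 118, 86.9 and 99.9 FPKM (change -0.75, adjusted p = 0.00118). Igf2r, the large mannose phosphate receptor, named after its values were seen, had 33.2, 22.9 and 20.4 FPKM against 12.8, 11.7 and 13.8 FPKM, without overlap (change -0.92, adjusted p = 0.00244).

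Regulators of lysosomal genes and the rest of the lysosome moved in both directions, as the cathepsins did. So did genes at large, with 22.2% of all genes tested higher and 34.2% lower. Of 8 tested regulators 1 rose (2 under quantile normalization) and 2 fell (median change -0.13). Tfeb, the transcription factor best known for switching on lysosomal genes, had 3.05, 2.74 and 3.13 FPKM in the Foxo1ff samples against 7.03, 6.47 and 7.50 FPKM in the Foxo1dd samples (change 1.01 ± 0.15 SE, limma adjusted p = 0.000442). Its relative Tfe3 did not pass (16.99 and 13.3 FPKM in mean, adjusted p = 0.0985), and Fnip2 and Rragd, which act in the nutrient sensing that holds these factors in the cytosol, fell 4.15-fold and 3.38-fold. Of 32 other lysosomal hydrolases and membrane proteins tested, 6 rose and 15 fell (median change -0.36 beside -0.15 for all genes). Median-of-ratios scaling gave 6 and 13, quantile normalization 8 and 13. Whether either list differed from genes at large was not tested. Manba, a glycosidase, fell 11.6-fold, and Arsb, a sulfatase, 13.4-fold. Of the paired membrane proteins of lysosomes, Lamp2 rose from 95.1 to 235 FPKM and Lamp1, named after its values were seen, fell from 394 to 189 FPKM.

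**Figure D4:**
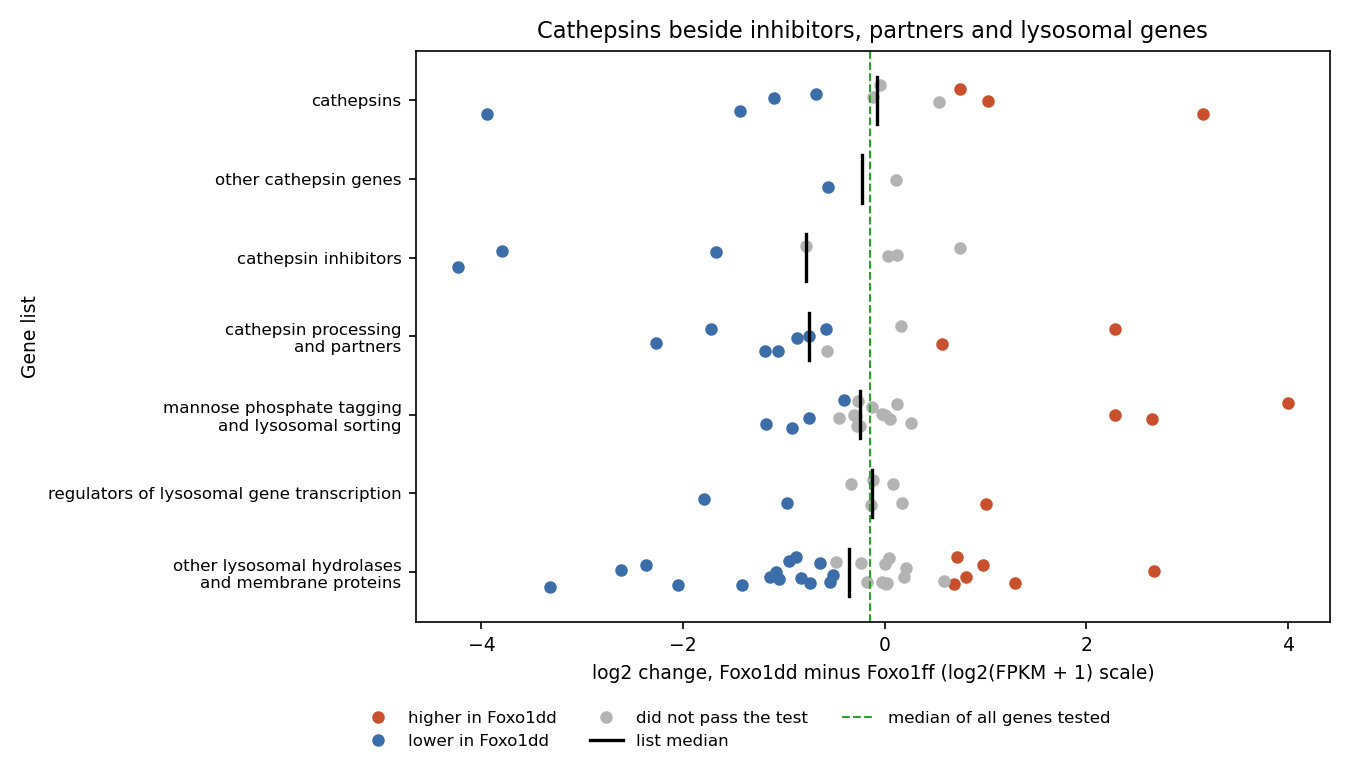
Change of each tested gene (log2, Foxo1dd minus Foxo1ff) in the cathepsin list and in 6 related lists, coloured by call, with the list median as a black line and the median of all genes tested as a dashed line. The 10 cathepsins spread from -3.94 to 3.15, and genes that rose and genes that fell stand in 5 of the 7 lists.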

How the data were processed

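The submitters' processing notes list DESeq2 1.12.4, edgeR 3.28.0, featureCounts 1.5.0-p1, STAR 2.5.2b and the mm10 build without saying what each was used for. The authors deposited 1 FPKM value per gene and sample. For the annotation, gene lengths and strand setting, nothing is given in the sources used. Where strand was ignored, reads of overlapping antisense genes cannot be told apart. FPKM values are not counts, so log2(FPKM + 1) was fitted with limma 3.58.1 in R 4.3.3 (lmFit, eBayes with a mean-variance trend, genotype as the only term), for the 11427 genes averaging 1 FPKM or more, leaving out 13537. The procedure was tested on simulated data. With 3 samples per group, a comparison cannot go below p = 0.1 in an exact permutation test, so none was used. Depth came from microRNA and small nucleolar RNA genes with RefSeq lengths, by finding the step that made 80% or more of their values under 12 reads whole (tolerance 0.05 read), and is least certain for Foxo1dd 2 (26 genes). Gene positions are from GENCODE M21 of the same assembly. All members, and up to 4 tested genes of each other list with the smallest p, are named, except 2 that are not reported here, and others are marked. The members and lists were chosen with earlier results of these data known.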

Additional observations from a re-analysis of the deposited data

How the results depend on the processing

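There were 16 alternatives, all planned: leaving out each sample, a replicate block, array weights, robust or trend-free eBayes, scaling by median of ratios or by quantiles, a filter at 5 FPKM or none, and pseudocounts of 0.5 or 0.1. The count of cathepsin genes was 3 or 4 higher and 3 or 4 lower in each. Ctsb, Ctsc, Ctsd, Ctsh, Ctss and Ctsz kept direction and call wherever tested (Ctss and Ctse fall below the 5 FPKM minimum), and Ctsf lost its call in 10 of 16, its change being -0.27 with array weights. Signs turned only for genes that had not passed. Ctsa became 0.0131 under median-of-ratios scaling and 0.0115 under quantile normalization. Ctsl became 0.0812 and 0.119 there and 0.0690 with array weights, and ranged from -0.195 to 0.104 with a sample left out (above 0 without Foxo1dd 2). Cstb became -0.0085 with array weights and ranged from -0.0241 to 0.151 with a sample left out (below 0 without Foxo1ff 1, Foxo1dd 1 or Foxo1dd 2), and Napsa from -0.17 to 0.314 (below 0 without Foxo1ff 2). The causes were not tested. Median-of-ratios scaling moved the median of all genes from -0.15 to -0.03 and quantile normalization to -0.0040. Small list counts moved by over 1.5 times: Ctso lost its call as in the text and without a filter, sorting genes that fell went from 4 to 7 with array weights, inhibitors that rose from 0 to 1 under quantile normalization, with array weights and without Foxo1dd 2, and regulators from 1 to 2 higher under quantile normalization and to 0 higher and 1 lower at the 5 FPKM minimum.

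Samples with the same bioreplicate number correlated in their deviations from group means at 0.12, 0.11 and -0.13, so the number is not taken to pair them. With the replicate block, 3 cathepsin genes rose and 4 fell, and over all genes 2417 rose and 3724 fell against 2533 and 3912.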

Other observations

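The 2 peptidases that trim proteins from the amino end, Ctsh and Ctsc, turned in their order. The level of Ctsh was 0.510 to 0.725 times that of Ctsc in the Foxo1ff samples and 15.9 to 21.98 times in the Foxo1dd samples. Among the carboxypeptidases, Ctsb stood at 2.63 to 3.22 times the level of Ctsz in Foxo1ff and at 15.5 to 16.7 times in Foxo1dd. Ctsd stood at 1.94 to 2.56 times the level of Ctsb in Foxo1ff and at 8.01 to 12.1 times in Foxo1dd. In none of these ratios did the groups overlap, and none was tested.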
